A study of Caenorhabditis elegans with 2 samples.

Results

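MicroRNA (miRNA) genes were examined for occupancy by SNPC-3.4 in Caenorhabditis elegans. SNPC-3.4 is the worm counterpart of 1 subunit of SNAPc, the complex that activates small nuclear RNA genes. The members were the 261 nuclear genes of biotype miRNA in the Ensembl annotation of WBcel235, the build also called ce11, out of 46890 nuclear genes in all. Whole young adult hermaphrodites of strain YL497, of unknown age, were used in both samples. The strain is a transgenic line with an insertion targeting snpc-3.4 (T02C12.2), and the protein it makes carries GFP and FLAG at its C-terminus. Chromatin was sonicated and precipitated with an antibody to GFP. Replicates 1 and 2 are biological replicates of 1 group, so there was no contrast between conditions. Whole worms were used, so the tissues that contribute to a region cannot be told apart.

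A miRNA is cut from a longer transcript. The nuclear Drosha complex frees a hairpin, Dicer trims it, and an Argonaute protein carries 1 strand to target messages, which it recognises mainly through the seed near the 5' end. Most miRNA genes are transcribed by RNA polymerase II, alone, in clusters or inside introns of protein-coding genes. SNAPc is known for another task: it binds a proximal sequence element upstream of genes for spliceosomal and other small nuclear RNAs (snRNAs) and recruits RNA polymerase II or III there.

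The genes with the highest signals were mir-8196.1 and mir-8196.2, on the X chromosome, and both had a stretch of letters upstream that is shared with snRNA genes. That 20-base element was learned from 50 snRNA and spliced leader (SL) RNA genes with a thresholded SNPC-3.4 summit, and its letters are CGGAACCCGCNANNTGTCGG, where N is a position at which no letter reached 60% of the genes. The stretches below run from 100 bases before to 20 bases after each annotated 5' end, on the gene's strand, from the RefSeq genome sequence of WBcel235, with the best match to the element in capitals. They are shown because they carry the likeness between these miRNA genes and other genes bound by SNPC-3.4, which are a snoRNA-annotated gene (T21F2.3), a gene of the general ncRNA class (K08B5.8) and an SL RNA gene (sls-2.8). The coordinates are chrX:2328894-2329013 (plus strand) for mir-8196.1, chrX:14324498-14324617 (minus) for mir-8196.2, chrX:16722094-16722213 (minus) for T21F2.3, chrX:16564630-16564749 (plus) for K08B5.8 and chrIII:12250365-12250484 (plus) for sls-2.8.
mir-8196.1: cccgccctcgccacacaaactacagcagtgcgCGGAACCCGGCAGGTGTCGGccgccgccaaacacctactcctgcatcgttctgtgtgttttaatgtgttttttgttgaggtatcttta
mir-8196.2: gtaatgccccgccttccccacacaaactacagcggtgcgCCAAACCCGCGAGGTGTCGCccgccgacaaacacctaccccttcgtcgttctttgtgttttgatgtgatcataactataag
T21F2.3: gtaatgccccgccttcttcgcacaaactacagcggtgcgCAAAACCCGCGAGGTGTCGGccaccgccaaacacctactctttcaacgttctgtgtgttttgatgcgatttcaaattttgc
K08B5.8: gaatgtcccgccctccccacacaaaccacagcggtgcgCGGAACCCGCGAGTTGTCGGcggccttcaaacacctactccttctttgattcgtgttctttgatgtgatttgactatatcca
sls-2.8: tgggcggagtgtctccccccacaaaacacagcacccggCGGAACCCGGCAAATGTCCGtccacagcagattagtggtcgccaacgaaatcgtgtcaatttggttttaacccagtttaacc

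The best match scored 31.5 bits at mir-8196.1 and 25.8 bits at mir-8196.2, against a median of 26.6 bits among the genes from which the element was learned. The score is the log2 odds of the letters under the element against the genome's base composition. In mir-8196.1 the first base of the match lay 68 bp upstream of the annotated 5' end, and in mir-8196.2 it lay 61 bp upstream. The median over the genes used for learning was 61.0 bp. The distances are alike, and mir-8196.1 and mir-8196.2 took no part in the learning of the element. The windows of 110 bp on both sides of the 5' ends of mir-8196.1 and mir-8196.2 were 86.3% identical over 212 aligned bases. The mir-8196.2 gene was 93.5% identical to the annotated snoRNA gene T21F2.3 over 139 bases, and mir-8196.1 was 92.8% identical to it over 111. K08B5.8 was 89.9% identical to mir-8196.1 over 69 bases. Thus mir-8196.2, T21F2.3 and K08B5.8 each share part of their sequence with mir-8196.1. K08B5.8 was not aligned to mir-8196.2 or T21F2.3. These 4 genes have 3 different annotated biotypes, and all 4 had a thresholded summit upstream. T21F2.3 had a pooled signal of 164 with its summit 34 bp upstream, and K08B5.8 had 188 with its summit 35 bp upstream. The SL RNA gene sls-2.8 had 497 with its summit 53 bp upstream.

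Regions of the pooled list that pass the authors' threshold are called thresholded here, and the remaining regions candidate regions. The thresholded list held 2101 regions, 2075 of them nuclear. A gene was counted as bound when the summit of a region, its highest point, lay within 250 bp of the annotated 5' end of the gene. Signal is the value that the authors' peak caller gave to each region. It has no stated unit, so it orders regions within 1 list. Depth is unknown because the lists hold no read counts.

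Of the 261 miRNA genes, 13 had a thresholded summit, 60 had a candidate region only and 188 had neither. The 13 are 4.98% of the miRNA genes, beside 4.03% of all nuclear genes. With any region of the pooled list counted, the share was 28.0% of miRNA genes, beside 21.1% of all nuclear genes. The thresholded share is near that background and so says nothing about miRNA genes as a class. Replicate 1 alone, with its 2101 highest regions, gave 11 miRNA genes (4.21%, beside 3.52% of all nuclear genes). Replicate 2 alone gave 12 (4.60%, beside 4.02%). The share was larger in 3 other small RNA classes, at 42.4% of the 99 snRNA genes and 26.9% of the 346 snoRNA genes, and 356 tRNA genes out of 612 were bound. The piRNA genes had 0.332% of 15363. Protein-coding genes had 4.50% at the same window, which is also near the share of miRNA genes.

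**Figure D1:**
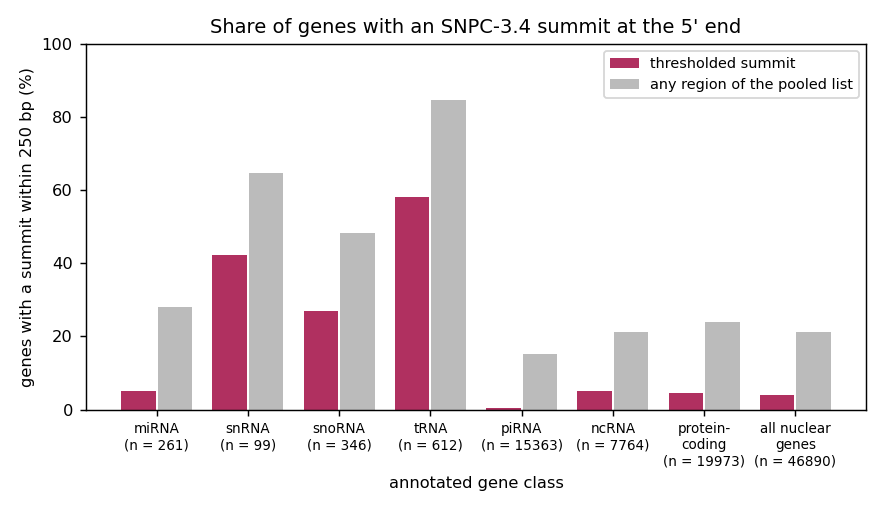
The bars give the percentage of genes in each annotated class, on the vertical axis, with an SNPC-3.4 summit within 250 bp of the 5' end, for thresholded summits (red) and for any region of the pooled list (grey). The miRNA genes, on the left, stood at 4.98% and 28.0%, against 4.03% and 21.1% of all nuclear genes on the right.

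The pooled signals of the 13 bound genes ran from 51.0 to 297, and mir-8196.1 and mir-8196.2 were the highest in both replicates. At mir-8196.1 the signal was 297 in the pool, 129 in replicate 1 and 176 in replicate 2, or 153 ± 33.2 over the replicates (SD, n = 2). At mir-8196.2 it was 214 in the pool, 107 in replicate 1 and 127 in replicate 2, or 117 ± 14.0 (SD, n = 2). Their pooled signals took places 58 and 90 in a list of 30000 regions. The summits lay 39 bp and 61 bp upstream of the 5' ends. Replicate values cannot be compared with pooled ones, and replicate 2 ran on a higher scale: over 1893 nuclear thresholded summits the median ratio of replicate 2 to replicate 1 was 1.67, and over the 13 miRNA summits it was 1.36. The SDs therefore include this difference in scale.

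**Figure D2:**
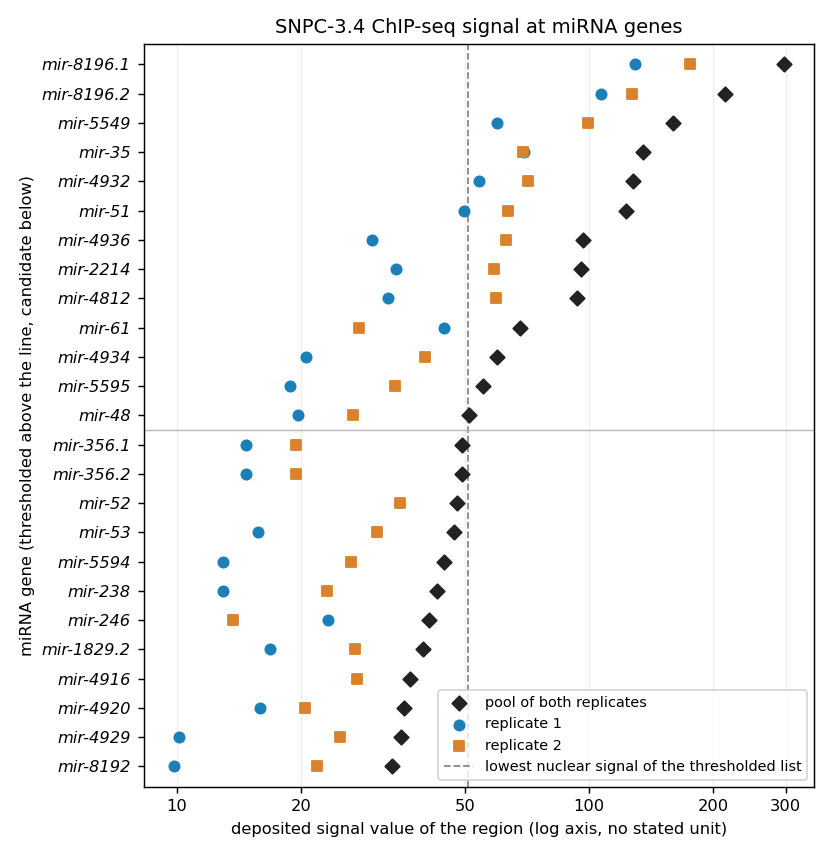
Each row is a miRNA gene and the horizontal log axis is the deposited signal, in the pool (diamonds), in replicate 1 (circles) and in replicate 2 (squares); a missing point means that no summit of that list lay within 250 bp. The dashed line, which applies to the pool only, is the lowest nuclear thresholded signal of 50.8, with the 13 thresholded genes above the horizontal line and the 12 highest candidate-only genes below it.

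Among the 261 miRNA genes, 6 had a match to the upstream element at or over 16.3 bits, the score that 90% of the snRNA and SL RNA genes reached, within 250 bp before to 50 bp after the 5' end. In the same window the match was found in 94 of 19973 protein-coding genes (0.471%), 41 of 346 snoRNA genes (11.8%) and 63 of 99 snRNA genes (63.6%). The snRNA share includes genes from which the element was learned. Besides mir-8196.1 and mir-8196.2 these were mir-2219, mir-273, mir-798 and mir-8193, none of which had a region in the pooled list. At mir-798 and mir-8193 the match was on the opposite strand, with 21.1 and 21.2 bits. At mir-273, which lies in an intron of pde-3, it was on the gene's own strand, with 17.7 bits and its first base 180 bp upstream. Within 100 bp of the summit a match at that score was found at 2 of the 13 miRNA summits, beside 6.84% of all 2075 nuclear thresholded summits and 3.23% of the 1922 that lie over 250 bp from snRNA, SL RNA and snoRNA genes. The other 11 genes with a thresholded summit had no match at that score, and the highest of the 60 candidate-only genes reached 15.6 bits.

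The match at mir-2219 is the strongest miRNA match with no region, at 28.2 bits and on the same strand, and it is shown for comparison with the bound genes above. Its first base lay 113 bp upstream, farther than in mir-8196.1 and mir-8196.2. A near copy of the match, which differs in the last letter, follows it closely in the stretch below. Only the best match was scored and is in capitals. The annotated entry of mir-2219 begins at the mature sequence, so its 5' end is not that of a hairpin transcript. The stretch is chrV:2924636-2924785, minus strand, from 130 bases before to 20 after the 5' end.
mir-2219: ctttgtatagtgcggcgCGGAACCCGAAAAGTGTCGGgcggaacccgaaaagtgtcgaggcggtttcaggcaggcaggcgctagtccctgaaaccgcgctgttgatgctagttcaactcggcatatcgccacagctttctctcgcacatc

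**Figure D3:**
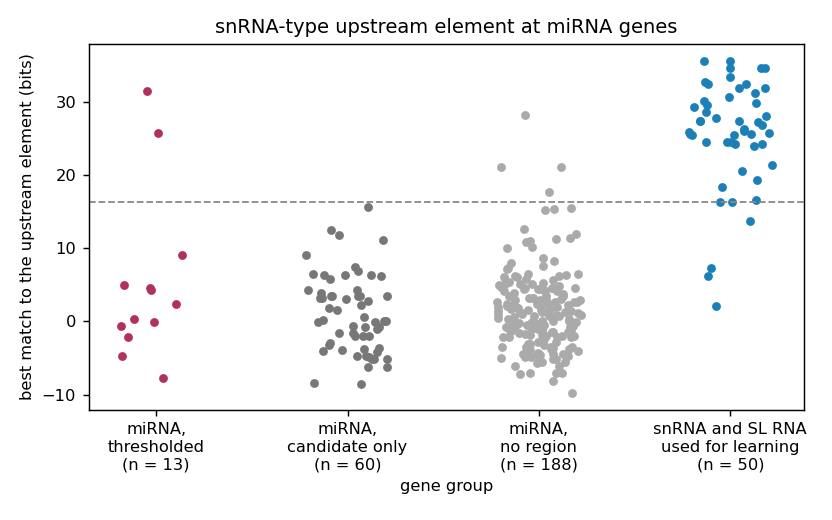
Each point is a gene, and the vertical axis is its best match to the snRNA-type upstream element in bits, for miRNA genes by their status and for the 50 genes from which the element was learned; the dashed line is at 16.3 bits. The thresholded genes mir-8196.1 and mir-8196.2 stand at 31.5 and 25.8 bits among the snRNA and SL RNA genes, while the other 11 thresholded miRNA genes lie below the line. The miRNA genes were searched over a longer window and on both strands, unlike the genes used for learning.

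Another sequence feature at the miRNA summits was the core of the tRNA B box, GGTTCGA, a part of the internal promoter of tRNA genes that the polymerase III factor TFIIIC recognises. It occurred within 100 bp of the summit, on either strand, at 3 of the 13 miRNA summits, at mir-4812, mir-51 and mir-4936, beside 11.8% of all 2075 nuclear thresholded summits. In mir-4812 its first base lay 48 bp upstream of the 5' end and in mir-51 it lay 52 bp upstream, both on the gene's strand. In mir-4936 it lay 117 bp downstream of the 5' end. These counts are small, and 3 of 13 is a description only. The stretches of mir-4812 (chrX:15242830-15242959, minus), its relative mir-1829.2 (chrX:14977009-14977138, plus) and mir-51 (chrIV:11026093-11026222, minus) are given from 110 bases before to 20 after the 5' end, with the B box core in capitals.
mir-4812: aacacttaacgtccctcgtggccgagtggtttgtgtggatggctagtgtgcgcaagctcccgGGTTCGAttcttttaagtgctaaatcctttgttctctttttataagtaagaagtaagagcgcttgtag
mir-1829.2: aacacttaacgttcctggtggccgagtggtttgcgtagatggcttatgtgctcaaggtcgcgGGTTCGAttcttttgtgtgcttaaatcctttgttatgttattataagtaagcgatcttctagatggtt
mir-51: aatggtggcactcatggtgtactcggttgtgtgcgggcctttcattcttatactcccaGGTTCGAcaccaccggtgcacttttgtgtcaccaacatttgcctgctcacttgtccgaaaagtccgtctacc

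The letters around the core in mir-4812 were also like a tRNA gene. The 100 bp to both sides of its summit aligned to the tRNA gene Y113G7B.t1 with 27 of 33 bases identical, and the same window of mir-1829.2 aligned to that gene with 28 of 31. The alignment score of mir-4812 was reached by 0.627% of the 1753 nuclear thresholded summits over 250 bp from tRNA genes, and that of mir-1829.2 by 0.685% of them. The window at mir-4936 aligned to W05B2.t1 with 32 of 41 bases identical, a score that 2.34% of those summits reached. At mir-51 the score was reached by 28.0%, so the B box core there stood without a longer likeness.

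The signal at mir-4812, which lies in an intron of piki-1 (a phosphoinositide 3-kinase gene) on the same strand, was 93.6 in the pool, 32.5 in replicate 1 and 59.3 in replicate 2. Its summit lay 88 bp upstream. At mir-1829.2, in an intron of F20D1.3, the signal was 39.5 in the pool, 16.8 in replicate 1 and 27.0 in replicate 2, below the threshold. The remaining copies, mir-1829.1 in an intron of gas-1 and mir-1829.3 in another intron of piki-1, hold GGTTCGA 47 bp upstream as well. No list had a region at mir-1829.1, and mir-1829.3 had a signal of 11.8 in replicate 2 alone. The 4 genes thus share the core and differ in signal. From 150 bp upstream to the end of the gene, mir-4812 was 88.4% identical to mir-1829.2, 81.3% to mir-1829.3 and 81.0% to mir-1829.1. The share of 31-base words around the 5' end that occur once in the genome was 90.8% for mir-4812, 94.1% for mir-1829.2, 68.3% for mir-1829.3 and 82.7% for mir-1829.1, and how reads that fit several places were mapped is not stated in the sources at hand. The mature sequences of the 3p arm are shown with the seed, bases 2 to 8, in capitals, and mir-4812, mir-1829.2 and mir-1829.3 share it.
mir-4812-3p: cAACCACUgcaauuucucuau
mir-1829.2-3p: cAACCACUggaauuucucuauu
mir-1829.3-3p: cAACCACUggaauuucucuauu
mir-1829.1-3p: cAACCAUUggaauuucucuauu

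The mir-51 gene belongs to a family with a common seed that acts in embryonic development. It had a signal of 123 in the pool, 49.6 in replicate 1 and 63.7 in replicate 2, with its summit 38 bp upstream. The same summit lay 69 bp inside the start of F36H1.17, a gene of the ncRNA class on the same strand, so the gene to which it belongs cannot be told apart. Of the 6 family members, mir-51 alone had a thresholded summit. At mir-52 the signal was 47.8 in the pool and 34.8 in replicate 2, and replicate 1 had no region there. At mir-53, which lies near mir-51 on chromosome IV, it was 47.1 in the pool, 15.7 in replicate 1 and 30.5 in replicate 2. Both summits were downstream of the 5' end, by 64 bp in mir-52 and 47 bp in mir-53. At mir-54, mir-55 and mir-56, on the X chromosome, the pooled list had no region, replicate 2 had a signal of 13.9 near each, and replicate 1 had 12.8 near mir-54 and mir-55. These 3 genes lie close together, so the equal values may come from 1 region per replicate. The members are shown by the mature arm that carries the seed.
mir-51-5p: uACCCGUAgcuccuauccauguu
mir-52-5p: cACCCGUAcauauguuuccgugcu
mir-53-5p: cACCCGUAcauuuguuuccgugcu
mir-54-3p: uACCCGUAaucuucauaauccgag
mir-55-3p: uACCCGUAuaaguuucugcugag
mir-56-3p: uACCCGUAauguuuccgcugag

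The mir-35 family is needed for embryonic development, and 7 of its 8 genes (mir-35 to mir-41) form a cluster on chromosome II, inside an intron of Y62F5A.9 on the opposite strand. At mir-35, the first gene of the cluster, the signal was 135 in the pool, 69.6 in replicate 1 and 69.1 in replicate 2. The replicates were nearly equal there, while replicate 2 was the higher at 11 of the 13 bound genes. The summit lay 204 bp upstream of mir-35, the farthest of the 13. It was 123 bp upstream of Y62F5A.16, a gene of the ncRNA class on the same strand that starts nearer to the summit than mir-35, so the gene to which it belongs cannot be told apart. A second region, with 23.8 in the pool, 8.58 in replicate 1 and 15.4 in replicate 2, was within 250 bp of mir-36, mir-37, mir-38 and mir-39. These 4 share that region, so it counts once. At mir-40 and mir-41 no list had a region within 250 bp. The upstream summit was 780 bp from mir-40 and 904 bp from mir-41. The eighth gene, mir-42, lies apart from the cluster beside mir-43 and mir-44, and these 3 shared a candidate region of 24.1. The mature sequences of mir-35 and mir-36 show the common seed.
mir-35-3p: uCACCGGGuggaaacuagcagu
mir-36-3p: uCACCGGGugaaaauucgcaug

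The let-7 family controls the timing of larval development, and mir-48, mir-84 and mir-241 act together on the target hbl-1. At mir-48 the signal was 51.0 in the pool, 19.7 in replicate 1 and 26.7 in replicate 2, and the summit lay 24 bp inside the 5' end. Its place was 2091 of 2101, so mir-48 was the last miRNA gene inside the threshold, and it was not among the 2101 highest regions of either replicate. At mir-84 the pooled signal was 22.2 and the signal in replicate 1 was 11.6, with no region in replicate 2. At mir-241, which lies near mir-48 on chromosome V, and at mir-793 and mir-795 no list had a region. At mir-794 replicate 1 alone had one, with 10.03. For let-7 itself, the annotated entry of 1732 bp begins 1066 bp before the mature sequence. No list had a region within 250 bp of the entry's 5' end or of the start of the mature sequence. Members mir-48, mir-84, mir-241 and let-7 are shown here.
mir-48-5p: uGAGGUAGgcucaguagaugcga
mir-84-5p: uGAGGUAGuauguaauauuguaga
mir-241-5p: uGAGGUAGgugcgagaaauga
let-7-5p: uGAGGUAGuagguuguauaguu

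At mir-61, which represses a target in the vulval precursor cells, the signal was 68.1 in the pool, 44.5 in replicate 1 and 27.7 in replicate 2. This was the other bound gene, besides mir-35, at which replicate 1 was the higher. Its summit lay 146 bp upstream, 165 bp from the 5' end of the protein-coding gene F55A11.4, and the neighbour mir-250 had no region of its own within 250 bp. Of the genes that share the seed of mir-61, mir-44 had a candidate region of 24.1, and mir-45 and mir-247 had none.
mir-61-3p: uGACUAGAaccguuacucauc
mir-44-3p: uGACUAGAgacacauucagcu
mir-45-3p: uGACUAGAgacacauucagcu
mir-247-3p: uGACUAGAgccuauucucuucu

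The remaining bound genes are single hairpins with no family, and their roles are not described here. At mir-2214, inside an intron of B0361.11 on the same strand, the signal was 95.5 in the pool, 34.0 in replicate 1 and 58.7 in replicate 2, with the summit 52 bp upstream. The letters TATAAA, the core of a TATA box, occurred there with their first base 29 bp upstream on the same strand. The annotated entry of mir-2214 begins at a mature sequence, so this distance is not from a mapped transcription start. The stretch is shown from 60 bases before to 25 after the 5' end, at chrIII:7278655-7278739 on the plus strand, with TATAAA in capitals. The region's summit was also 132 bp upstream of B0361.13, a gene of the ncRNA class on the other strand.
mir-2214: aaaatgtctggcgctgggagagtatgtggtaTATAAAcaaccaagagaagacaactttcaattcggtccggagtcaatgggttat

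TATAAA occurred within 100 bp of the summit at 6 of the 13 miRNA genes, beside 18.0% of all nuclear thresholded summits. Within 50 bp it was at 1 of the 13, beside 7.86% of all, so the count stood near the background there. The others within 100 bp were mir-35, mir-5549, mir-61, mir-8196.1 and mir-4812, and their distances from the 5' end were not alike, from 5 bp at mir-4812 to 125 bp at mir-5549. At mir-8196.1 and mir-4812 the letters were on the opposite strand. Within 100 bp CTGTTTC, the core of the motif upstream of piRNA genes, was at 0 of the 13 miRNA summits, beside 2.94% of all. GCGAGAC and AAGGCGC were likewise at 0, beside 8.48% and 10.4%. Within 200 bp, a window added after the data were seen, CTGTTTC was at 2 of the 13, beside 7.86% of all. The letters not being in the windows of 100 bp says nothing about the factors that read them.

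In 3 cases bound genes lay within 500 bp of protein-coding 5' ends and of no other small RNA gene, so that the gene that the region belongs to cannot be told apart. The mir-5549 gene lies between rfc-4, a replication factor C subunit gene, and eef-1A.1, which encodes a translation elongation factor. Its signal was 159.5 in the pool, 59.9 in replicate 1 and 99.1 in replicate 2, with the summit 33 bp upstream and 135 bp from the nearest protein-coding 5' end. At mir-4932, between smn-1 (a factor in spliceosomal snRNP assembly) and klp-16 (a kinesin gene), it was 128 in the pool, 54.0 in replicate 1 and 71.2 in replicate 2. There the summit lay 117 bp downstream of the miRNA 5' end and 28 bp from a protein-coding one. At mir-4934, near mtr-4 (an exosome helicase gene), it was 59.6 in the pool, 20.5 in replicate 1 and 40.0 in replicate 2. Its pooled summit was 57 bp upstream, while the nearest summit of replicate 1 was 31 bp downstream.

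Of the 13 bound genes, 8 stood apart from protein-coding 5' ends and other small RNA genes, against 171 of all 261 miRNA genes. Besides the 5 described above (mir-8196.1, mir-8196.2, mir-4812, mir-2214 and mir-51) and mir-48, these were mir-4936 and mir-5595. Genes of the ncRNA class did not count as small RNA genes here, and such genes start within 250 bp of the summits at mir-51 and mir-2214. Neighbours were sought around the 5' end and the summit, or around the 5' end only where a gene had no region. At mir-4936, on chromosome III, the signal was 96.7 in the pool, 29.7 in replicate 1 and 63.0 in replicate 2, with its summit 38 bp inside the 5' end. At mir-5595, within an intron of nurf-1, a chromatin remodelling gene, on the opposite strand, it was 55.4 in the pool, 18.8 in replicate 1 and 33.8 in replicate 2. Its pooled summit was 77 bp upstream and that of replicate 2 was 153 bp upstream. By position, 8 of the 13 lay between protein-coding genes, 3 in introns on the opposite strand and 2 in introns on the same strand. Of all 261, 152 lay between protein-coding genes, 30 in introns on the opposite strand and 67 in introns on the same strand.

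Of the 13 summits, 10 lay upstream of the annotated 5' end and 7 lay 20 to 80 bp upstream. The median was 52.0 bp upstream. Of all miRNA genes, 3.83% had a thresholded summit on the upstream side, beside 2.50% of all nuclear genes. Among all nuclear genes, 1891 had a thresholded summit within 250 bp, and for 1174 it was on the upstream side. The share at 20 to 80 bp upstream was not computed for other genes, so the 7 are a description only. The annotated 5' end of a miRNA entry is not a mapped transcription start: off chromosome I, 58 entries begin exactly at a mature sequence, mir-2214 and mir-5595 among them. The median pooled signal at the 13 genes was 96.7, beside 71.7 over all nuclear thresholded regions.

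**Figure D4:**
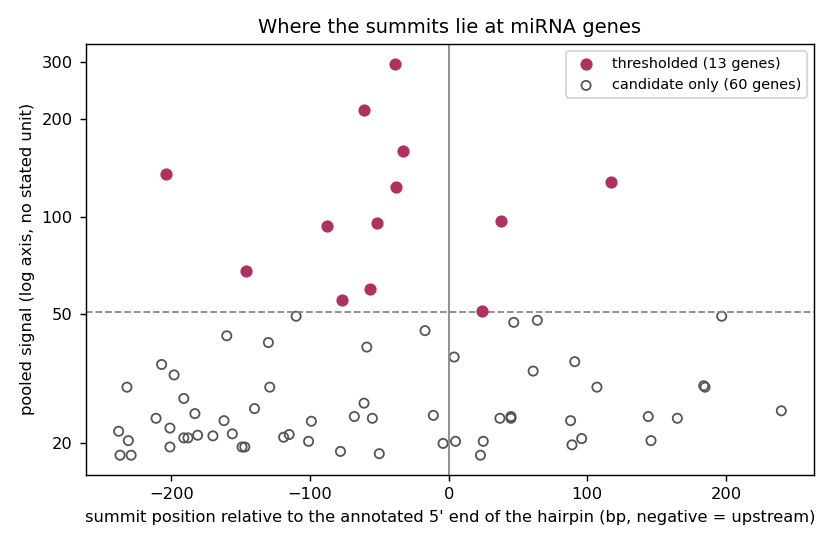
The horizontal axis is the position of the summit relative to the hairpin's annotated 5' end in bp (negative is upstream), and the vertical log axis is the pooled signal, for the 13 thresholded (filled) and 60 candidate-only (open) miRNA genes. The 13 thresholded summits run from 204 bp upstream to 117 bp downstream with 10 of them upstream, and the open points spread over the whole window.

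In the single lists, 10 of the 13 genes had their region among the 2101 highest of replicate 1, 11 among those of replicate 2, and 9 among both. The same shares over all nuclear thresholded summits were not computed. Just outside the threshold were mir-356.1 and mir-356.2, which overlap on opposite strands and share a region of 49.2 in the pool, 14.7 in replicate 1 and 19.4 in replicate 2. They were followed by mir-52 and mir-53, described above, and by mir-5594, whose signal was 44.4 in the pool, 12.9 in replicate 1 and 26.5 in replicate 2. The next were mir-238 and mir-246, at 42.8 and 40.8 in the pool. At mir-246 replicate 1 was the higher, with 23.2 and 13.7 in replicates 1 and 2, and at mir-238 it was the lower, with 12.9 and 23.1. After mir-1829.2 came mir-4916 at 36.8, mir-4920 at 35.6, mir-4929 at 34.9 and mir-8192 at 33.3 in the pool. The pooled signals of these 12 thus run on from those of the bound genes with no gap at the threshold.

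Of the 60 candidate-only genes, 25 had a region in both replicates, 32 in 1 replicate and 3 in neither. This split was not computed for genes of other classes. Their median pooled signal was 23.8, where the lowest nuclear value of the pooled list is 18.3, and several neighbours share a region, so that the 60 genes have 49 distinct ones. Of the 188 genes with none, 34 had a region in the own list of at least 1 replicate, and mir-54 and mir-55 had one in both.

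The bantam-related family had no thresholded summit. Its members mir-81 and mir-82 had candidate regions of 18.8 and 18.3, near the floor of the list, and each had a region in replicate 2 alone. At mir-80 replicate 1 alone had one, with 11.5, and at mir-58.1 and mir-58.2 no list had any. In the mir-64 family mir-229 had a candidate region of 32.4, and in the mir-72 family mir-72 had one of 30.01. Neither lin-4, the founding miRNA of the larval timing pathway, nor its relative mir-237 had a region in any list. The same held for mir-34, mir-62, mir-124 (a neuronal miRNA), lsy-6 (which sets left-right asymmetry of taste neurons), mir-228 and mir-273. At mir-1, the muscle miRNA, replicate 1 alone had a region, with 10.1. Over the 51 annotated genes of the families and single genes chosen, 4 had a thresholded summit (7.84%, against 4.03% of all nuclear genes). A further 14 had a candidate region only. Of all nuclear genes, 21.1% had a thresholded or candidate region. By seed, 5 of the 13 bound genes shared one with another miRNA gene (38.5%), beside 41.8% of all miRNA genes.

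A hairpin may be transcribed from a start site far upstream, so thresholded summits up to 2000 bp upstream on the gene's strand were also counted, a choice made after the data had been seen. There were 26 such miRNA genes (9.96%), beside 6.64% of all nuclear genes. Of these, 16 were not among the 13. Of those, 6 belong to the mir-35 cluster, and mir-250 is the neighbour of mir-61. Others lie inside host genes on the same strand. Examples are mir-353 in rpl-24 and mir-354 in rps-20, both ribosomal protein genes, and mir-1833 in qars-1, a tRNA synthetase gene. The summit was 997 bp upstream of mir-353 with a signal of 110.2, 857 bp upstream of mir-354 with 190.0 and 1295 bp upstream of mir-1833 with 53.2. These 3 summits lay upstream of the 5' end of the host as well, by 238 bp at rpl-24, 245 bp at rps-20 and 531 bp at qars-1. Upstream of mir-71, which acts in lifespan, the summit was 1488 bp away, inside its host ppfr-1, with 59.3.

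Protein-coding genes that make, use or turn over miRNAs, or are their known targets, were looked up with a window of 500 bp. Of 33 listed genes that were in the annotation, 8 had a thresholded summit (24.2%), beside 7.04% of all protein-coding genes. A further 12 had a candidate region only. The candidate-only share of all protein-coding genes was not computed at 500 bp. At 250 bp, 24.0% of all protein-coding genes had a thresholded or candidate region. The list was chosen with earlier results of these data known, so the share of 24.2% is a description. In the processing step, pash-1, the partner of Drosha, had a signal of 57.7 in the pool, 19.7 in replicate 1 and 40.2 in replicate 2, with its summit 121 bp upstream. Drosha itself (drsh-1) had 48.1 and Dicer (dcr-1) 36.0 in the pool, both below the threshold. The gene mir-1828, in an intron of pash-1, has that same summit 1911 bp upstream.

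Among genes that act on mature miRNAs or their targets, xrn-2, an exonuclease that degrades released miRNAs, had the summit nearest to its 5' end after hrpa-1. Its signal was 119.8 in the pool, 50.6 in replicate 1 and 70.4 in replicate 2, with the summit 28 bp downstream. The hnRNP genes hrpa-1 and hrpk-1 had 62.9 and 55.4 in the pool. The deadenylase gene ccf-1 had 52.1 in the pool and 41.1 in replicate 2, with no summit of replicate 1 within 100 bp. At tsn-1, a RISC-associated nuclease gene, the signal was 97.4 in the pool, 28.1 in replicate 1 and 69.6 in replicate 2. The highest were vig-1, another RISC-associated gene, at 161, and ran-1, a nuclear transport GTPase gene, at 155, with summits 417 bp and 441 bp upstream. The summit counted for vig-1 also lies at a piRNA gene, and that of ran-1 at dkc-1 and the ncRNA-class gene K01G5.11. That of tsn-1 lies at F10G7.9 and that of ccf-1 at trap-4, so these 4 summits cannot be given to the listed gene alone. The Argonaute gene alg-1 had no region in any list, and alg-2 had a candidate region of 20.3.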

How the data were processed

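Peak lists of ChIP-seq from 2 biological replicates of 1 group were used, on ce11, with 1-based coordinates. The authors deposited a list of 30000 candidate regions per replicate, another for the pool, and a thresholded list of 2101, called against a control and by irreproducible discovery rate per the deposited notes. No caller, aligner or mapping filter is named in the sources used here. The signal per region, as deposited, has no stated scale, and the deposited score column was not used. The thresholded regions were checked to be the 2101 of highest signal in the pool. Single replicates feed the pool and are not independent of it. The ce10 lists and the control were not analysed here.

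The annotation was Ensembl release 115, and all 261 miRNA genes had a RefSeq symbol. For each, the nearest summit within 250 bp of the 5' end was taken. Counts carry no test. Genes were named when they had a thresholded summit, were among the 12 highest candidate-only genes or belonged to the families and pathway list. The members and lists were chosen with earlier results of these data known, as were the motifs. The snRNA-type element, of 20 bases, was learned by expectation maximisation from bound snRNA and SL RNA genes off chromosome I, within 31 to 100 bases upstream, and was chosen after the data were seen. Identities came from local alignments. Sequences are from the RefSeq genome and mature miRNA entries; letters from chromosome I are not shown. The listed names mir-1834, imb-4 and ntl-1 were not matched. The summit search was tested on simulated data. Python 3.11.15, NumPy 2.4.6, pandas 2.3.3, Biopython 1.88 and matplotlib 3.10.9 were used.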

Additional observations from a re-analysis of the deposited data

How the results depend on the processing

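With 13 miRNA genes bound at 250 bp, the alternatives gave 10 at 100 bp (beside 2.22% of all nuclear genes), 21 at 500 bp (beside 5.52%), 9 with the 1050 regions of highest signal (beside 2.32%), 20 with any overlap of the region with the widened gene (beside 7.21%) and 26 up to 2000 bp upstream (added after the data were seen). Leaving out a replicate gave 11 to 12 genes: 10 of the 13 remained without replicate 2 and 11 without replicate 1. Lost without replicate 1 were mir-48 and mir-61, with mir-52 gained; lost without replicate 2 were mir-48, mir-4934 and mir-5595, with mir-246 gained. The 8 genes set apart numbered 6 to 8 under all alternatives run. The 60 candidate-only genes numbered 24 at 100 bp and 89 at 500 bp. The candidate-only share of all nuclear genes was not computed at these windows. At 250 bp, 21.1% of all nuclear genes had a thresholded or candidate region, beside 28.0% of miRNA genes. The median signal was 44.5 to 63.0 in single replicates, which are on their own scales. The median summit position of -52.0 bp was -48.0 to -39.0 in single replicates, -45.5 with 100 bp and -39.0 with 500 bp. The pathway count of 8 became 5 both at 250 bp (beside 4.50% of protein-coding genes) and among those 1050 regions (beside 3.64%), and 6 to 8 in single replicates (beside 6.19% without replicate 2 and 7.01% without replicate 1). TATAAA was found at 1 of 13 summits within 50 bp (beside 7.86% of all nuclear thresholded summits) and 9 within 200 bp (beside 39.6%), windows added after the data were seen. Causes were not tested. No paired analysis was possible because there is 1 group. The lists hold no read counts, so the depth that limits weak regions is unknown, and 10 genes without a region have under 50% unique sequence around the 5' end.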
